A study of Mus musculus with 8 samples.

Results

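The genes described here are 50 genes of the cell division programme, from the replication helicase and the supply of deoxynucleotides to mitotic kinases, centromere proteins and spindle motors. They were taken from a list of symbols, and a gene was followed through the probe sets annotated to its symbol alone. There were 49 such genes with 115 probe sets on the array, and Ccnb1 is not analysed here. The brightest probe set stood for its gene. Of the 49 genes, 38 lay above the median of their array on at least 2 of 8 arrays and were tested among 11217 genes, and 11 lay below that limit. The groups were Rictor-null Tfh cells, WT Tfh cells, Rictor-null Th1 cells and WT Th1 cells, with 2 arrays each. All were polyclonal memory CD4 T cells sorted from the spleen of mice at day 60 after acute infection with LCMV Armstrong, with at least 10 mice pooled for each array. T follicular helper (Tfh) cells help B cells make antibody, T helper 1 (Th1) cells make interferon gamma, and Rictor is the defining subunit of mTOR complex 2, a kinase complex. The Cre driver, the deleted part of Rictor, the sort gates and the age of the mice could not be taken from the labels.

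A resting cell that enters division first makes cyclin E and the E2F factors, which switch on the genes for the MCM helicase, PCNA and the enzymes of deoxynucleotide synthesis. Later it makes cyclin B, the kinases CDK1, PLK1 and the Aurora kinases, and the proteins of the centromere and spindle, a wave that depends on the DREAM and B-Myb-MuvB complexes and FOXM1. Memory T cells long after an acute infection are mostly quiescent and a small share of them divides at any time. In bulk RNA, more dividing cells and more transcript per cell cannot be told apart.

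The promoters of these genes carry short sequence elements known from this programme, and 41 of the 50 genes matched 44 windows in a RefSeq table of promoters (GRCm38.p6). Each window held 250 bases before and 50 bases after an annotated start. The windows were searched on both strands for E2F letters (TTTCCCGC, TTTGGCGC, TTTCGCGC or TTTGCCGC), for the letters of the cell cycle homology region, or CHR (TTTGAA or TTCGAA), and for CCAAT. E2F letters on opposite strands can overlap each other. Promoters of 4 genes are shown: 2 of the replication, nucleotide and G1/S genes, and 2 of the mitotic genes, taken as those with the smallest p for the genotype effect averaged over both cell types. They are Rrm2 (chr12:24708004-24708253, plus strand), Mcm6 (chr1:128359706-128359955, minus strand), Mki67 (chr7:135716451-135716629, minus strand) and Birc5 (chr11:117848987-117849236, plus strand). Sequences run 5′ to 3′ on the gene's strand up to the base before the gene, and capitals mark matches to any of the motifs.
Rrm2: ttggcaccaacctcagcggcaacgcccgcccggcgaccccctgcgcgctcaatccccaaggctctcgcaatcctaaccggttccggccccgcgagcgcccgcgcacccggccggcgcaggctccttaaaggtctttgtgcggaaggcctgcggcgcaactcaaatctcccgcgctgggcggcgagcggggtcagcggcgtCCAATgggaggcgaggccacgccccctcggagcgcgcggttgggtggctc
Mcm6: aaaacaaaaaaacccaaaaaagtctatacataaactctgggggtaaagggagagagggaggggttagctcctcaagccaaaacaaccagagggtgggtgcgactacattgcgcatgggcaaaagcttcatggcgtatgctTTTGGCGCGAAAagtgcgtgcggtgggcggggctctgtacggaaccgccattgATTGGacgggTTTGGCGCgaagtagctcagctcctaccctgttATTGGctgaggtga
Mki67: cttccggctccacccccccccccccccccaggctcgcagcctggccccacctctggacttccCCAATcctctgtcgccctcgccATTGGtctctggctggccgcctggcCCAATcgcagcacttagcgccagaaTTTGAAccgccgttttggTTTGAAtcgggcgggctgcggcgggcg
Birc5: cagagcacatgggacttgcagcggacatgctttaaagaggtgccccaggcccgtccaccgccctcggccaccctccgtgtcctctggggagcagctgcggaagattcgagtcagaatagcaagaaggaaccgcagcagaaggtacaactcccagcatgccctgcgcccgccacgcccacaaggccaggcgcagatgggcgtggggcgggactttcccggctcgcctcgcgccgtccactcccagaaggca
In Mcm6 the capitals hold E2F letters at 2 places, the first as an overlapping pair on both strands, and CCAAT on the other strand at 2 places. In Mki67 they hold TTTGAA at 2 places and CCAAT at 3, in Rrm2 they hold 1 CCAAT, and the stretch shown for Birc5 has no match, which says only that these letters are not in it.

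E2F letters and CHR letters were spread unequally over the roles. E2F letters were found in 7 of 18 windows of the replication, nucleotide and G1/S genes (38.9%), in 1 of 26 windows of the mitotic genes (3.85%) and in 2.26% of all 32851 windows. CHR letters were found in 4 of those 18 windows (22.2%), in 20 of the 26 mitotic windows (76.9%) and in 19.2% of all windows. CHR letters together with CCAAT were in 73.1% of the mitotic windows and in 7.52% of all windows. With only the 250 bases before the start, 22.2% of the 18 windows held E2F letters (1.86% of all windows). CHR letters were then in 42.3% of the mitotic windows (17.1% of all), and CHR letters with CCAAT in 38.5% of them (6.02% of all). These were lower than before, whereas E2F letters stayed at 3.85% of the mitotic windows and CHR letters at 22.2% of the 18 windows. These shares are descriptions of sequence, and a match is not a bound site.

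**Figure D1:**
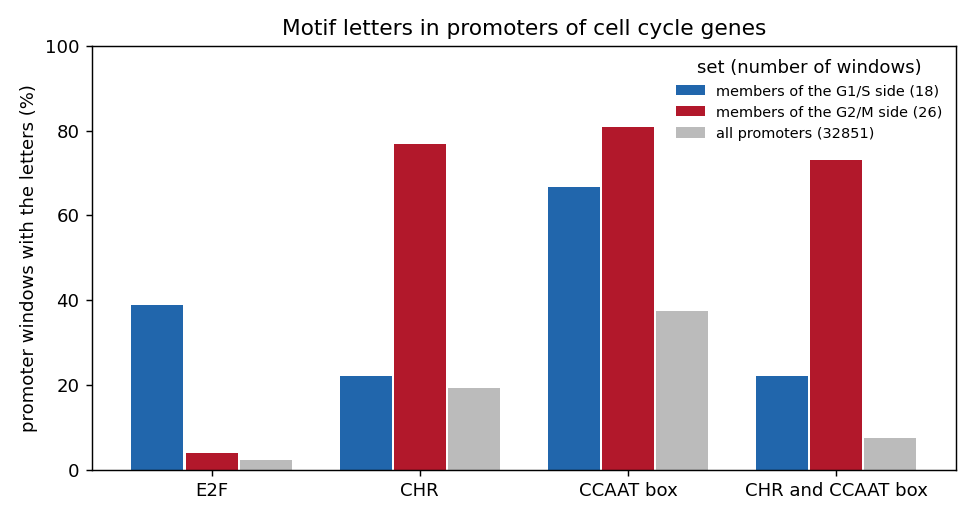
Share of promoter windows (percent, vertical axis) that hold E2F letters, CHR letters, CCAAT, or CHR letters together with CCAAT. Bars stand for the replication, nucleotide and G1/S genes (G1/S side, 18 windows), the mitotic genes (G2/M side, 26 windows) and all 32851 windows. CHR letters were in 76.9% of the mitotic windows, and E2F letters in 38.9% of the windows of the other genes of the programme.

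The median signal of an array was 35.7 to 37.7, and precision is limited by how few arrays there are. Signals are the deposited intensities, and differences are Rictor-null minus WT in log2 of the signal plus 32, which understates the change of dim genes. Errors are standard errors from limma, adjusted p values are from limma with Benjamini-Hochberg adjustment over the 11217 genes, and a gene rose or fell where that p was under 0.05. The 5 CD4 T cell markers measured had summed signals between 16800 and 18400 on the 8 arrays. The Tfh markers Cxcr5 and Bcl6 were higher on every Tfh array than on any Th1 array. The Tfh markers Icos and Il21 were higher in Rictor-null Th1 than in WT Tfh cells, and those of Pdcd1 overlapped. No Th1 marker passed between the cell types in a fit without the signal filter. Cxcr6 was lower on every Tfh array (255 to 342 against 357 to 489) and Ifng was higher on every Tfh array (1560 to 1600 against 1420 to 1540). The brightest of 5 probe sets of Rictor had 563 and 576 in Rictor-null Tfh cells against 560 and 563 in WT Tfh cells, and 493 and 474 in Rictor-null Th1 cells against 468 and 556 in WT Th1 cells. Whether these probe sets lie in the deleted part is not stated, so they do not check the genotype labels.

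In Th1 cells, 13 of the 38 tested genes rose in Rictor-null cells and 0 fell. That is 34.2%, where 7.55% of all genes tested rose and 2.97% fell (10.5% in either direction). Without adjustment, 21 of the 38 had a p under 0.05, as did 24.8% of all genes. The genes that rose came mainly from the mitotic end of the programme: 5 of 6 genes of the chromosome, the centromere and the chromosomal passenger complex, 2 of 7 mitotic cyclins and kinases with their regulators, 1 of 2 genes of anaphase promotion and 2 of 7 of the spindle. Of the replication genes 1 of 10 rose, of the nucleotide genes 1 of 3 and of the G1/S regulators 1 of 3. Among the genes that rose, Ccne2 (the G1/S regulator) and Nusap1 (of the spindle) passed the signal filter through their Rictor-null arrays. Without the filter 10 of the 49 genes rose in Th1 cells and 0 fell, where 4.16% of all genes rose and 1.61% fell. In Tfh cells, 4 of the 38 genes rose in Rictor-null cells and 0 fell, which is 10.5%, where 11.3% of all genes tested rose and 2.31% fell (13.6% in either direction). The share in Tfh cells was thus near that of all genes, and the share in Th1 cells was above it.

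The median difference of the 38 genes was 0.16 in Th1 cells, beside 0 over all genes, with a range of -0.21 to 0.63. In Th1 cells 29 of the 38 were above 0, as were 50% of all genes. In Tfh cells the median was 0.12, beside 0.04 over all genes, with a range of -0.13 to 0.41. There 31 of the 38 were above 0, as were 60.7% of all genes. The median in Tfh cells was 0.05 without Rictor-null Tfh replicate 2 (0.02 over all genes) and 0.07 after quantile normalization (-0.01 over all genes). Both Rictor-null arrays lay above both WT arrays for 24 genes in Th1 cells (63.2%, beside 28.3% of all genes) and for 20 genes in Tfh cells (52.6%, beside 39.9%). Both lay below for 5 genes in Th1 cells (13.2%, beside 27.7%) and for 4 in Tfh cells (10.5%, beside 19.7%). After quantile normalization 12 of these genes rose in Th1 cells and 1 in Tfh cells, where 5.96% of all genes rose and 4.8% fell in Th1 cells, and 6.6% rose and 3.85% fell in Tfh cells. The count in Th1 cells was 6, all higher, without Rictor-null Th1 replicate 2 (4.74% of all genes rose) and 6, all higher, without WT Th1 replicate 1 (4.26% rose). The count in Tfh cells was 1 without Rictor-null Tfh replicate 2 (5.87% of all genes rose). Leaving out WT Tfh replicate 2 gave 1 (4.14% rose), and leaving out WT Tfh replicate 1 gave 2 (3.9% rose). Without Rictor-null Tfh replicate 1 it was 10 higher and 1 lower, where 18.4% of all genes rose and 6.86% fell. Replicate differences of Rictor-null Tfh and WT Th1 cells correlated at -0.514 across genes, so that WT Th1 replicate 1 and Rictor-null Tfh replicate 2 deviated from their partners in the same direction. With both of these arrays left out, 15 of the genes rose in Th1 cells (7.85% of all genes) and 3 in Tfh cells (7.88%).

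**Figure D2:**
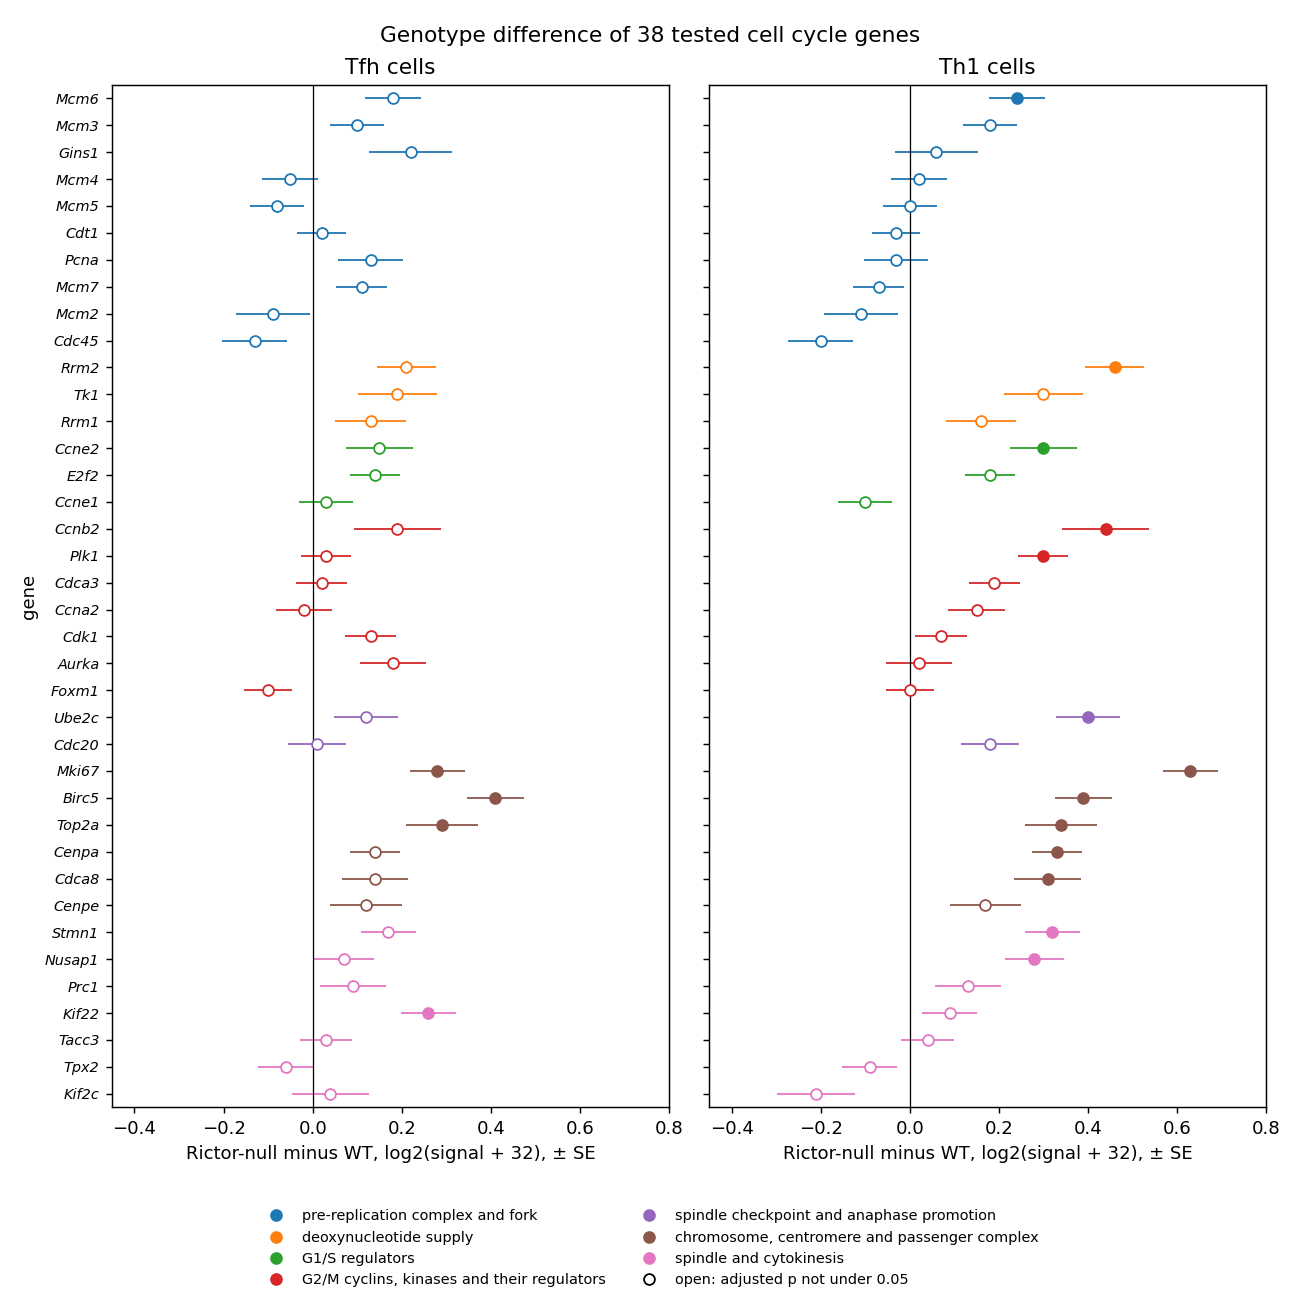
Difference between Rictor-null and WT cells (log2 of the signal plus 32, with SE) for each of the 38 tested genes, in Tfh cells and in Th1 cells, grouped by role. Differences ranged from -0.13 to 0.41 in Tfh cells and from -0.21 to 0.63 in Th1 cells, where Mki67 had the largest.

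Markers of regulatory T cells moved with the genotype. Their 4 genes had summed signals of 3980 and 4020 in Rictor-null Tfh against 2380 and 2360 in WT Tfh cells, and of 3540 and 3700 in Rictor-null Th1 against 2050 and 2160 in WT Th1 cells. In a fit over genes without the signal filter, which all marker counts use, 2 of the 4 rose in Tfh cells and 3 in Th1 cells, with the inhibitory receptor Ctla4 and the factor Ikzf2 giving nearly all of the sum. The defining marker Foxp3 had 27.5 and 41.5 in Rictor-null Tfh cells against 18.7 and 22.9 in WT Tfh cells, and 35 and 27.5 in Rictor-null Th1 cells against 16.9 and 23.7 in WT Th1 cells. It did not pass in Tfh cells (0.32, adjusted p = 0.136) or in Th1 cells (0.27, adjusted p = 0.239). All 5 Tfh markers rose in Rictor-null Tfh cells and 3 of them in Rictor-null Th1 cells. The part of these markers in the cell cycle results was not tested.

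Markers of B cells and germinal centre B cells, which divide fast, were dim: 7 of 8 lay below the median of every array, and the sums were between 195 and 231 in Rictor-null Tfh cells, 185 and 213 in WT Tfh cells, 208 and 220 in Rictor-null Th1 cells, and 192 and 213 in WT Th1 cells. The exception was the B cell receptor gene Cd79b, which had 44.9 and 66.9 in Rictor-null Tfh against 35.7 and 44.1 in WT Tfh cells, and 80.6 and 67.6 in Rictor-null Th1 against 52.2 and 47.2 in WT Th1 cells. Both Rictor-null arrays were above both WT arrays in each cell type, and Cd79b did not pass in Tfh cells (0.28, adjusted p = 0.211) or in Th1 cells (0.38, adjusted p = 0.143), nor on average over both (0.33, adjusted p = 0.0557). Of the 8 genes 0 passed between genotypes, and the part of Cd79b in the results was not tested. Both NK cell markers, Ncr1 and Klra8, lay below the median of every array. Of the other lists, 1 of 2 CD8 T cell markers rose in Tfh cells, 1 of 4 erythroid markers fell in Tfh cells, and 1 of 5 plasma cell markers rose in Th1 cells. Cd68 of the myeloid list rose in Tfh cells (0.38, adjusted p = 0.0309 by limma), with 74.8 and 91.8 in Rictor-null against 52.2 and 60.3 in WT cells. The rest of that list did not pass. On both Rictor-null Tfh arrays Lyz2, Cd14 and S100a9 were lower than in WT Tfh cells, and Csf1r, Itgax and S100a8 were higher. Summed signals of the 7 myeloid genes were 278 and 307 in Rictor-null Tfh cells against 265 and 273 in WT Tfh cells, and those of the 2 CD8 genes 103 and 106 against 92.6 and 92.5. Those of the 4 erythroid genes were 95.2 and 94.6 in Rictor-null Tfh cells against 121 and 118 in WT Tfh cells. Those of the 5 plasma cell genes were 1530 and 1620 in Rictor-null Th1 cells against 1310 and 1430 in WT Th1 cells. Most of this sum was Xbp1 (1360 and 1440 against 1150 and 1280), which did not pass, and the gene that rose was Prdm1. Sdc1 (32 and 34.3 against 43.9 and 37.3) and Jchain (13.6 and 12.4 against 17.2 and 14.9) were lower without passing, and Mzb1 overlapped. The part of these genes in the results was not tested.

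Among the chromosome genes, Mki67 and Birc5 were higher in Rictor-null cells of both types. Mki67 (gene ID 17345, chromosome 7, 135689784 to 135716450, minus strand) encodes Ki-67, the coat protein of mitotic chromosomes that is used as a marker of dividing cells. Its signals were 195 and 192 in Rictor-null Th1 against 114 and 113 in WT Th1 cells, and 162 and 167 in Rictor-null Tfh against 137 and 122 in WT Tfh cells. The groups did not overlap in either cell type, and the highest arrays were those of Rictor-null Th1 cells. The difference was 0.63 ± 0.061 in Th1 cells (n = 2 arrays per group, adjusted p = 7.29e-05 by limma) and 0.28 ± 0.061 in Tfh cells (adjusted p = 0.0133 by limma). As plain ratios of mean signal these were 1.70 and 1.27. The difference between the genotype effects was -0.35 ± 0.087 and did not pass (adjusted p = 0.0915 by limma). In Tfh cells the rise was no longer called after quantile normalization, without replicate 2 of Rictor-null Tfh cells or of WT Tfh cells.

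Birc5 (gene ID 11799, chromosome 11, 117849237 to 117855743) encodes survivin, a subunit of the chromosomal passenger complex that guides chromosome attachment and cytokinesis. It had signals of 61.1 and 62.2 in Rictor-null Th1 against 42.8 and 36 in WT Th1 cells, and of 77.3 and 78.4 in Rictor-null Tfh against 53.6 and 48.1 in WT Tfh cells. The difference was 0.39 ± 0.064 in Th1 cells (adjusted p = 0.00261 by limma) and 0.41 ± 0.064 in Tfh cells (adjusted p = 0.0021 by limma), which is 1.56 and 1.53 as ratios of signal. Its rise was called in both cell types under each of the 21 alternatives run for it. Birc5 had no other probe set, so the alternatives on the choice of probe set used the same values and could not test it.

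Top2a encodes topoisomerase II alpha, which untangles sister chromosomes. It had signals of 149 and 144 in Rictor-null Th1 against 115 and 104 in WT Th1 cells, with 0.34 ± 0.081 (adjusted p = 0.0232 by limma). In Tfh cells the signals were 133 and 165 in Rictor-null against 119 and 112 in WT cells, with 0.29 ± 0.081 (adjusted p = 0.0395 by limma). A second probe set of Top2a above the signal limit gave 0.13 in Th1 and -0.01 in Tfh cells and did not pass. The call in Tfh cells ended after quantile normalization (0.22, adjusted p = 0.096), with the replicate number as a block (adjusted p = 0.0679), in a fit of the Tfh arrays alone, with a pseudocount of 1 and without the filter. It also ended when Rictor-null Tfh replicate 2, either WT Tfh array or either Rictor-null Th1 array was left out. The call in Th1 cells ended without any 1 of the 4 Th1 arrays and without the signal filter.

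Cenpa encodes the histone H3 variant that marks centromeres. Its signals were 303 and 324 in Rictor-null Th1 against 243 and 241 in WT Th1 cells, with 0.33 ± 0.056 (adjusted p = 0.00311 by limma). Rictor-null Tfh cells had 303 and 302 and WT Tfh cells 273 and 268, and the difference of 0.14 did not pass (adjusted p = 0.114). A dimmer second probe set of Cenpa was lower in Rictor-null Th1 cells, by -0.19, and did not pass. Cdca8, which encodes borealin of the passenger complex, rose by 0.31 ± 0.075 in Th1 cells (adjusted p = 0.0221 by limma). Its call ended without Rictor-null Th1 replicate 2 or without WT Th1 replicate 1. The call of Cdca8 also ended without the signal filter and with its second brightest probe set, which gave 0.26 in Th1 cells. The kinetochore motor gene Cenpe, above the limit on 3 arrays, did not pass in either cell type.

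**Figure D3:**
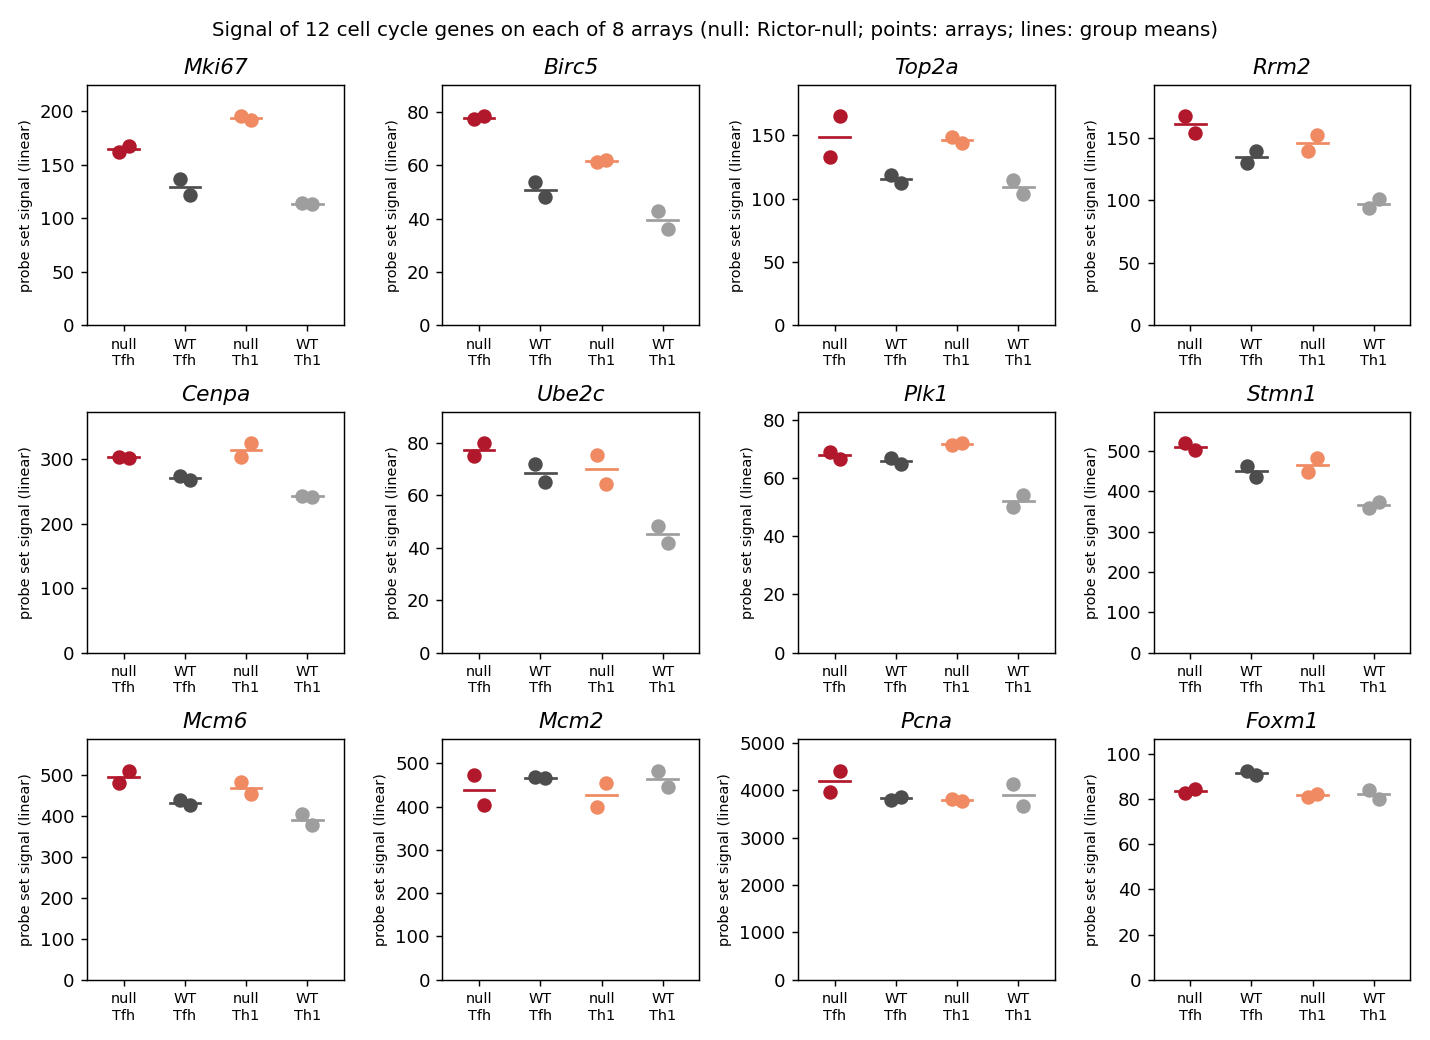
Signal on each of the 8 arrays (linear axis from 0) for single genes of the cell cycle set; points are arrays, lines are group means, null stands for Rictor-null, and the groups run in the order Rictor-null Tfh, WT Tfh, Rictor-null Th1 and WT Th1. Mki67 had 195 and 192 in Rictor-null Th1 cells and 114 and 113 in WT Th1 cells, whereas the ranges of Pcna overlapped between genotypes in Th1 cells.

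Among the mitotic cyclins and kinases, Plk1 and Ccnb2 rose in Rictor-null Th1 cells. Plk1 encodes polo-like kinase, which acts at mitotic entry and on the spindle. It had signals of 71.2 and 71.8 in Rictor-null Th1 against 49.9 and 54.2 in WT Th1 cells, with 0.30 ± 0.056 (adjusted p = 0.0057 by limma). In Tfh cells it had 68.8 and 66.6 in Rictor-null and 66.7 and 64.7 in WT cells, which overlap, with 0.03 (adjusted p = 0.754). WT Th1 cells had the 2 lowest values of the 8. The call in Th1 cells ended without WT Th1 replicate 1. The difference between the cell types, -0.27, did not pass (adjusted p = 0.131).

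Ccnb2, a mitotic cyclin that activates CDK1, had 59.1 on both Rictor-null Th1 arrays against 39.5 and 31.3 in WT Th1 cells, with 0.44 ± 0.098 (adjusted p = 0.0167 by limma). Rictor-null Tfh cells had 53.6 and 76.2 and WT Tfh cells 51 and 53.5, and this difference did not pass (0.19, adjusted p = 0.216). Its call in Th1 cells ended without either Rictor-null Th1 replicate or without WT Th1 replicate 2, and also without the signal filter.

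Cdk1, the main mitotic kinase, had 48.1 and 51.6 in Rictor-null Th1 against 46.7 and 45.6 in WT Th1 cells, and 55.3 and 56.4 in Rictor-null Tfh against 46.2 and 50.9 in WT Tfh cells. It did not pass in Th1 cells (0.07, adjusted p = 0.516) or in Tfh cells (0.13, adjusted p = 0.172). Foxm1, the forkhead factor of mitotic genes, had 80.9 and 82.3 in Rictor-null Th1 against 83.8 and 80.1 in WT Th1 cells, and 82.6 and 84.3 in Rictor-null Tfh against 92.5 and 90.6 in WT Tfh cells. Its differences of 0.00 and -0.10 did not pass (adjusted p = 0.975 in Th1 cells and 0.249 in Tfh cells). The other members of this role, Ccna2, Aurka and Cdca3, did not pass in either cell type.

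Ube2c, the ubiquitin-conjugating enzyme of the anaphase-promoting complex, had 75.4 and 64.2 in Rictor-null Th1 against 48.3 and 41.9 in WT Th1 cells, with 0.40 ± 0.072 (adjusted p = 0.00491 by limma). In Tfh cells it had 75.1 and 79.7 in Rictor-null and 71.8 and 65.2 in WT cells, a difference of 0.12 that did not pass (adjusted p = 0.279). The call in Th1 cells ended without Rictor-null Th1 replicate 1. Its partner Cdc20, an activator of the same complex, did not pass in either cell type.

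Of the spindle genes, Stmn1 and Nusap1 rose in Rictor-null Th1 cells and Kif22 in Rictor-null Tfh cells. Stmn1 encodes stathmin, which destabilizes microtubules. It had 447 and 483 in Rictor-null Th1 against 359 and 374 in WT Th1 cells, with 0.32 ± 0.062 (adjusted p = 0.0076 by limma), and 519 and 503 in Rictor-null Tfh against 464 and 437 in WT Tfh cells, with 0.17 (adjusted p = 0.0931). The second brightest probe set of Stmn1 gave 0.07 in Th1 cells and did not pass, and the call also ended without Rictor-null Th1 replicate 2 or without WT Th1 replicate 1. Nusap1, a microtubule-binding protein of the spindle, rose by 0.28 ± 0.067 in Th1 cells (adjusted p = 0.0214 by limma), and its signals of 30.6 and 30.3 in WT Th1 cells lay below the median of their arrays. Its call ended without Rictor-null Th1 replicate 2 or without either WT Th1 replicate.

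Kif22 encodes the chromokinesin Kid, which pushes chromosome arms toward the spindle equator. It had 117 and 130 in Rictor-null Tfh against 98.7 and 97.1 in WT Tfh cells, with 0.26 ± 0.062 (adjusted p = 0.0215 by limma), and 109 and 113 in Rictor-null Th1 against 106 and 99.3 in WT Th1 cells, with 0.09 (adjusted p = 0.42). Its call in Tfh cells ended after quantile normalization, in a fit of the Tfh arrays alone, and without Rictor-null Tfh replicate 2 or either WT Tfh replicate. The other 4 spindle genes tested, Kif2c, Tpx2, Prc1 and Tacc3, did not pass between genotypes.

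Most replication genes did not pass between genotypes. Their median difference was -0.01 in Th1 cells and 0.06 in Tfh cells over 10 genes, against 0.34 and 0.21 over the 6 chromosome genes. Mcm6 (gene ID 17219, chromosome 1, 128331575 to 128359705, minus strand), a subunit of the MCM helicase that unwinds DNA, was the 1 gene of this role that rose. It had 483 and 452 in Rictor-null Th1 against 404 and 377 in WT Th1 cells, with 0.24 ± 0.063 (adjusted p = 0.0331 by limma), and 479 and 510 in Rictor-null Tfh against 439 and 425 in WT Tfh cells, with 0.18 ± 0.063 (adjusted p = 0.0814). Its call in Th1 cells ended after quantile normalization and when any 1 of the 4 Th1 arrays or the 2 WT Tfh arrays was left out. The call of Mcm6 also ended with a pseudocount of 1, with the replicate number as a block and with its second brightest probe set. That probe set gave 0.43 in Th1 and -0.2 in Tfh cells and did not pass. The other 5 MCM subunits did not pass in either cell type, with differences in Th1 cells between -0.11 for Mcm2 and 0.18 for Mcm3.

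Pcna, the sliding clamp of the replication fork, had 3820 and 3780 in Rictor-null Th1 against 4120 and 3670 in WT Th1 cells, and 3960 and 4410 in Rictor-null Tfh against 3800 and 3850 in WT Tfh cells. It did not pass in Th1 cells (-0.03, adjusted p = 0.819) or in Tfh cells (0.13, adjusted p = 0.267). Cdc45, a helicase cofactor that loads at origins, had the lowest difference of this role in Th1 cells. Its signals were 82.3 and 86.4 in Rictor-null Th1 against 108 and 95.3 in WT Th1 cells, with -0.20 ± 0.073 (adjusted p = 0.119 by limma).

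Among the nucleotide genes, Rrm2 (gene ID 20135, chromosome 12, 24708254 to 24714146) encodes the small subunit of ribonucleotide reductase, which makes deoxynucleotides in S phase. It had 139 and 152 in Rictor-null Th1 against 93.4 and 101 in WT Th1 cells, and 167 and 154 in Rictor-null Tfh against 130 and 139 in WT Tfh cells. The difference was 0.46 ± 0.066 in Th1 cells (adjusted p = 0.00105 by limma) and 0.21 ± 0.066 in Tfh cells (adjusted p = 0.0616 by limma). In Th1 cells the rise was called under each of the 22 alternatives run for it. So was that of Mki67 in Th1 cells, but Mki67 had no other probe set for the alternatives on the probe set to use. A dimmer second probe set of Rrm2 rose there too (0.38, adjusted p = 0.0343 over all probe sets with 1 symbol), and another, dimmer still, gave -0.02. Rrm1, the large subunit, did not pass in either cell type by its brightest probe set (0.16 in Th1 cells). A dimmer probe set of Rrm1 had 63.1 and 64.2 in Rictor-null Th1 against 41.9 and 42.9 in WT Th1 cells and passed there over all probe sets (0.36, adjusted p = 0.0104).

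Of the G1/S regulators, Ccne2, a cyclin E that drives entry into S phase with CDK2, had 45.9 and 57.5 in Rictor-null Th1 against 32.6 and 39.3 in WT Th1 cells, with 0.30 ± 0.076 (adjusted p = 0.0284 by limma). Its call ended when WT Th1 replicate 1, either WT Tfh array or Rictor-null Th1 replicate 2 was left out, and without the signal filter. Ccne1, the other cyclin E gene, did not pass in either cell type. E2f2, an E2F factor that activates S phase genes, had 143 and 153 in Rictor-null Th1 against 127 and 126 in WT Th1 cells, with 0.18 ± 0.057 (adjusted p = 0.0643 by limma). A dimmer probe set of E2f2 had 98.1 and 87.6 in Rictor-null Th1 against 65.4 and 71.8 in WT Th1 cells and passed over all probe sets (0.31, adjusted p = 0.0304). E2f1 lay below the signal limit, with 29.2 and 30.4 in Rictor-null Th1 against 39.3 and 35.4 in WT Th1 cells, and 32.7 and 32.6 in Rictor-null Tfh against 33.3 and 34.7 in WT Tfh cells.

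**Figure D4:**
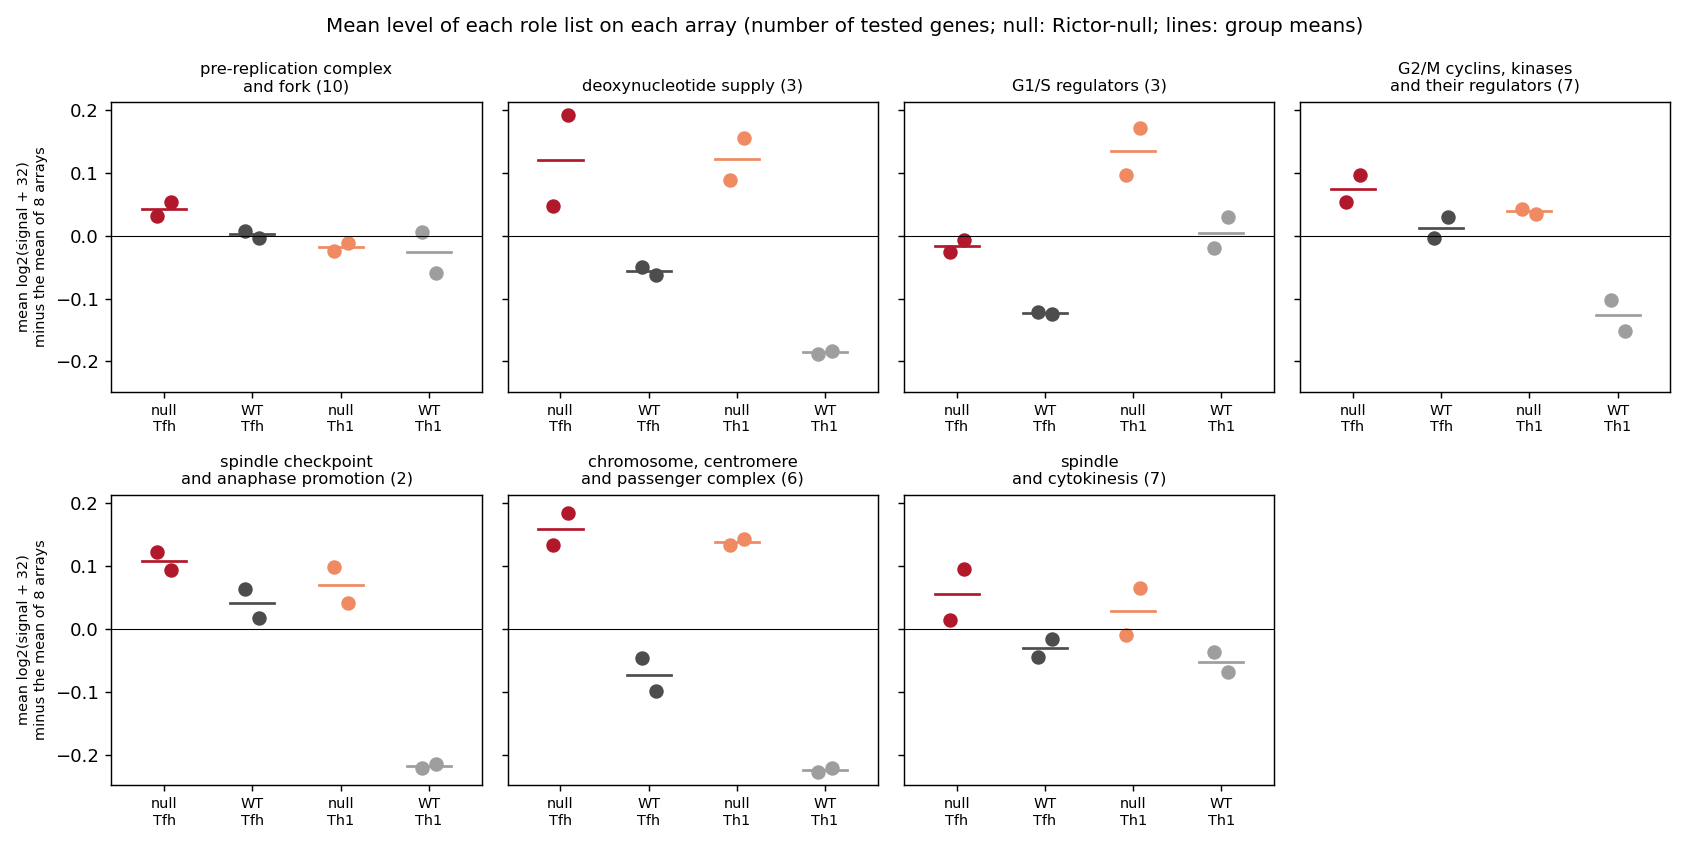
Mean level of the tested genes of each role on each array, in log2 of the signal plus 32, after subtracting the mean of the 8 arrays for that role; points are arrays and lines group means. The 6 chromosome genes lay at 0.133 and 0.143 in Rictor-null Th1 and at -0.227 and -0.221 in WT Th1 cells, whereas the 10 replication genes lay between -0.059 and 0.054 on the 8 arrays.

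Averaged over both cell types, 17 of the 38 genes rose and 0 fell (44.7%, where 13.1% of all genes rose and 3.93% fell, 17.1% in either direction). The 17 were the 13 of Th1 cells with Kif22 (0.17, adjusted p = 0.0205), E2f2 (0.16, adjusted p = 0.0175), the thymidine kinase gene Tk1 (0.24, adjusted p = 0.0223) and Mcm3 (0.14, adjusted p = 0.0452). They include Ccne2 and Nusap1, which passed the signal filter through their Rictor-null arrays. The count was 9 without WT Tfh replicate 2 (7.9% of all genes rose) and 10 without Rictor-null Th1 replicate 2 (10.6% rose). The test of a difference between the genotype effects of the cell types called 0 of the 38 genes by limma. It called 1.21% of all genes (0.82% with a larger effect in Tfh cells and 0.392% with a smaller one). An unadjusted p under 0.05 was found for 6 of the 38 and for 19.1% of all genes. The larger count in Th1 cells than in Tfh cells is therefore not shown to be a difference between them for any single gene. Without Rictor-null Tfh replicate 1 that test called 2 of the 38, both with a smaller effect in Tfh cells, where 8.74% of all genes were called with a larger and 5.61% with a smaller effect.

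The genes also differed between the cell types. In WT mice, Tfh cells were higher than Th1 cells for 6 of the 38 genes and lower for 2, which is 15.8% and 5.26%, where 3.09% of all genes were higher and 11.6% lower (14.7% in either direction). Both Tfh arrays lay above both Th1 arrays for 17 of the genes (44.7%, beside 19.7% of all genes) and below them for 6 (15.8%, beside 48%). Those higher were Rrm2, Ube2c, Plk1, Stmn1, Cdca3 and Birc5, and those lower were E2f2 and Prc1. Rrm2 had 130 and 139 in WT Tfh against 93.4 and 101 in WT Th1 cells, with 0.37 ± 0.066 (adjusted p = 0.00713 by limma), and Ube2c 71.8 and 65.2 in WT Tfh against 48.3 and 41.9 in WT Th1 cells, with 0.38 ± 0.072 (adjusted p = 0.00921 by limma). Stmn1 was higher by 0.28 (adjusted p = 0.0184). E2f2 had 101 and 103 in WT Tfh against 127 and 126 in WT Th1 cells, with -0.25 ± 0.057 (adjusted p = 0.0208 by limma). This comparison shares the WT Th1 arrays with that of the genotypes in Th1 cells, so a low value on them raises both. After quantile normalization 10 genes were higher in WT Tfh cells and 0 lower, where 3.63% of all genes were higher and 5.36% lower. The count of 8 was 0 without WT Tfh replicate 1, where 0.449% of all genes were higher and 1.31% lower. It was 1, higher in Tfh cells, without each of the other 3 WT arrays, where 0.674% to 1.48% of all genes were higher and 1.75% to 4.29% lower.

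In Rictor-null mice, Tfh cells were higher than Th1 cells for 1 of the 38 genes, Birc5, and lower for 2, E2f2 and Prc1 (2.63% and 5.26%, where 3.27% of all genes were higher and 6.45% lower, 9.72% in either direction). Both Tfh arrays lay above both Th1 arrays for 13 genes (34.2%, beside 21.3% of all genes) and below them for 7 (18.4%, beside 28%). Birc5 had 77.3 and 78.4 in Rictor-null Tfh against 61.1 and 62.2 in Rictor-null Th1 cells, with 0.23 ± 0.064 (adjusted p = 0.0476 by limma). E2f2 had 118 and 113 in Rictor-null Tfh against 143 and 153 in Rictor-null Th1 cells, with -0.29 ± 0.057 (adjusted p = 0.00976 by limma). Prc1, which bundles microtubules of the spindle midzone, had 88.9 and 106 in Rictor-null Tfh against 124 and 134 in Rictor-null Th1 cells, with -0.31 ± 0.074 (adjusted p = 0.0249 by limma). The shares called were near or below those of all genes, whereas the share with both Tfh arrays above was higher (34.2% beside 21.3%). After quantile normalization 0 genes were higher and 2 lower, where 3.92% of all genes were higher and 4.9% lower. The count of 3 was 1 without Rictor-null Th1 replicate 1 (1.41% of all genes higher and 2.06% lower) and 0 without Rictor-null Th1 replicate 2 (1.78% and 3%).

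**Figure D5:**
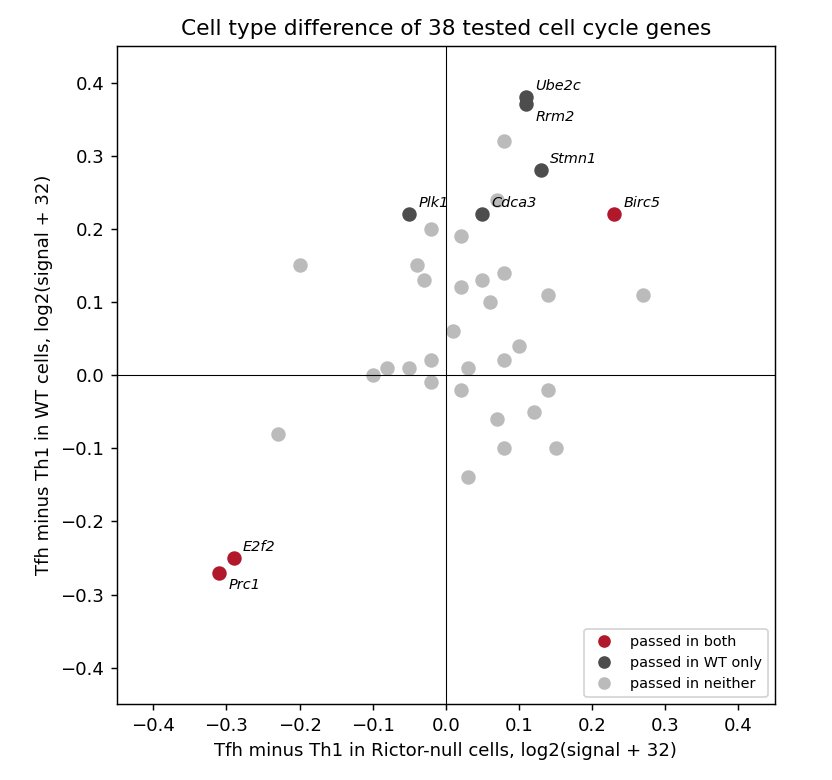
Difference between Tfh and Th1 cells (log2 of the signal plus 32) in Rictor-null mice against that in WT mice, 1 point for each of the 38 tested genes. Rrm2 and Ube2c were higher in WT Tfh cells by 0.37 and 0.38 and did not pass in Rictor-null mice, where their differences were 0.11 each, and E2f2 and Prc1 were lower in Tfh cells of both genotypes.

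The 11 genes below the signal limit were Cdc6, Tyms, E2f1, Melk, Bub1, Bub1b, Ttk, Cenpf, Aurkb, Kif11 and Kif20a. Their signals ran from 10.1 to 39.3, where the array medians were 35.7 to 37.7, so these probe sets give little information on them. In a fit without the filter, 0 of the 11 passed between genotypes in either cell type, with a lowest adjusted p of 0.0533 for Cdc6 in Tfh cells. Cdc6, a loader of the MCM helicase, passed on average over both cell types (0.18, adjusted p = 0.047). Of the 38 genes tested, 31 lay above the median on all 8 arrays, Gins1, Ccnb2 and Birc5 on 7, Ccne2 and Nusap1 on 5, and Cenpe and Tpx2 on 3. Ccne2 and Nusap1 were above it on all 4 Rictor-null arrays and on 1 of 4 WT arrays, and Cenpe on 3 Rictor-null and 0 WT arrays, so for these the filter itself depended on where the signal was high.

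Other probe sets were available for 7 of the 13 genes that rose in Th1 cells, 12 in all. Of these, 6 were above 0 in Th1 cells and 1 passed, that of Rrm2. Among the 6 bright enough for the filter 5 were above 0. Passing was judged here by a separate limma fit over all probe sets with 1 symbol, which adjusts over more tests and estimates the spread anew. Standard errors moved both ways, in Th1 cells from 0.056 to 0.037 for Plk1 and from 0.098 to 0.11 for Ccnb2. In that fit the brightest probe sets of Mcm6, Ccne2, Ccnb2, Top2a, Cdca8 and Nusap1 did not pass in Th1 cells either. Their adjusted p values ran from 0.0566 for Nusap1 to 0.0897 for Ccnb2. Those of the other genes that rose in Th1 cells passed. Of the 25 genes that did not pass in Th1 cells, 22 had 40 other probe sets, of which 2 passed higher, those of Rrm1 and E2f2. For the 4 genes that rose in Tfh cells, 2 had 4 other probe sets, 2 of them above 0 and 0 passing. In the same fit the brightest probe set of Top2a did not pass in Tfh cells either (adjusted p = 0.106 by limma). Those of Mki67, Birc5 and Kif22 passed there.

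Part of the genes followed Mki67 across the arrays. Pearson r with Mki67 over 8 arrays had a median of 0.58 over the other 37 genes and of 0.079 over 11216 other genes, and it was over 0.8 for 7 of the 37 (18.9%) and for 5.71% of the others. The 7 were Cenpa, Top2a, Mcm3, Tk1, Plk1, Nusap1 and Mcm6. For 9 of the 37 r was below 0, with the lowest for Cdc45 (-0.81), Kif2c (-0.64) and Mcm2 (-0.57). Outside the set, the genes most like the mean of the 38 standardized profiles were Rnf157 (r = 0.988), Ttll12 (r = 0.985), Anxa2 (r = 0.968), Fam160a1 (r = 0.965) and Pank1 (r = 0.963). All these r values rest on the same 8 arrays in 4 groups and are descriptions. Anxa2, a membrane-binding annexin, had 1010 and 1190 in Rictor-null Tfh against 633 and 608 in WT Tfh cells, and 935 and 971 in Rictor-null Th1 against 504 and 483 in WT Th1 cells.

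Other genes of the pathway, from lists of further replication, mitosis, G1 and inhibitor genes, are given by their counts, beside 11.3% of all genes that rose and 2.31% that fell in Tfh cells, and 7.55% and 2.97% in Th1 cells. Of 29 further replication and repair genes 1 rose and 1 fell in Tfh cells and 0 passed in Th1 cells. Those that moved were Uhrf1 (0.23, adjusted p = 0.0219), which reads DNA methylation at forks, and Prim2 (-0.28, adjusted p = 0.0408), a primase subunit, whose other 2 probe sets above the limit gave 0.06 and -0.11 and did not pass. Of 18 further mitosis and chromatin genes 2 rose and 1 fell in Th1 cells and 1 rose in Tfh cells. Cdc25b, a phosphatase that activates CDK1, rose in Th1 cells (0.67, adjusted p = 5.1e-05) and in Tfh cells (0.46, adjusted p = 0.000798). Cks1b, a small partner of cyclin-dependent kinases, rose in Th1 cells (0.35, adjusted p = 0.0116), and the tubulin gene Tubb5 fell there (-0.29, adjusted p = 0.00763). A second bright probe set did not pass in Th1 cells for Cks1b (0.14) or for Tubb5 (-0.20).

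Of 10 G1 cyclins and kinases, Cdk6, a kinase that works with cyclin D, rose in both cell types. It had 691 and 645 in Rictor-null Th1 against 383 and 361 in WT Th1 cells, with 0.79 ± 0.059 (adjusted p = 1.19e-05 by limma), a ratio of 1.80, and 610 and 609 in Rictor-null Tfh against 438 and 437 in WT Tfh cells, with 0.45 ± 0.059 (adjusted p = 0.000638 by limma). A second bright probe set of Cdk6 passed in Th1 cells (0.67) and not in Tfh cells (0.26, adjusted p = 0.0685). Ccnd3, the cyclin D3 gene, fell in Th1 cells (-0.26, adjusted p = 0.0128) and was -0.06 in Tfh cells. In each cell type the remaining genes of this list did not pass.

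Of 22 brakes on division and genes of quiescence, 3 rose and 2 fell in Th1 cells, where 7.55% of all genes rose and 2.97% fell. In Tfh cells 3 rose and 1 fell, where 11.3% of all genes rose and 2.31% fell. Cdkn1a encodes p21, an inhibitor of cyclin-dependent kinases. It had 434 and 436 in Rictor-null Th1 against 263 and 251 in WT Th1 cells, with 0.69 ± 0.075 (adjusted p = 0.000155 by limma), and 251 and 287 in Rictor-null Tfh against 172 and 150 in WT Tfh cells, with 0.64 ± 0.075 (adjusted p = 0.000314 by limma). A second probe set of Cdkn1a passed in both cell types, with 0.66 and 0.48. Cdkn2d, an inhibitor of the cyclin D kinases, rose in both (0.27 in Th1 and 0.28 in Tfh cells), and Rb1, the retinoblastoma protein, rose in Th1 cells (0.49, adjusted p = 0.00544).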

How the data were processed

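Affymetrix arrays were run on biotin-labelled RNA from 100 ng of total RNA, per the labels. The deposited values are linear intensities of 45037 probe sets. The submitters' processing notes name MAS5 and RMA with no role. How arrays were scaled to each other is not stated. Probe sets were named from the platform annotation: 34945 with 1 symbol, 932 with several and 9160 with none.

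A pseudocount of 32 was added and log2 taken. Probe sets above their array's median on at least 2 of 8 arrays were kept, and the brightest with 1 symbol represented each gene. Group means over the 8 arrays were estimated by limma 3.58.1 (R 4.3.3); residual degrees of freedom were 4 and prior ones 6.7, with Benjamini-Hochberg adjustment over 11217 genes. The code was tested on simulated data. The smallest two-sided p of an exact permutation test of 2 against 2 arrays is 0.333, and none was run. Replicates are called biological in the labels, and each is a pool. Figures used matplotlib 3.10.9 in Python 3.11.15.

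The genes, lists and tests were chosen with earlier results of these data known. Named are the genes called between genotypes, Mki67, Pcna, Cdk1, E2f1, Foxm1 and the smallest p of each role, up to 4 called between cell types, up to 4 genes of each pathway list, and the 5 most alike. Cdc45, Cdc6, Rrm1, Kif2c, Mcm2 and genes listed only by name were added after their values were seen. For Mki67 the promoter was cut to the 179 bases outside the gene. Alternatives covered scaling, pseudocount, filter, probe set, array weights, variance trend, replicate number and the arrays fitted. Depth does not apply to arrays.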

Additional observations from a re-analysis of the deposited data

Results flagged for a closer look

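Of the 117 tested genes of the cell cycle set and its pathway lists, 1 passed the test of a difference in the genotype effect between the cell types. That test called 1.21% of all 11217 genes, so a count of 1 is not particular to these lists. Btg2, an antiproliferative gene, had signals of 1160 and 1290 in Rictor-null Tfh against 724 and 806 in WT Tfh cells, and of 833 and 996 in Rictor-null Th1 against 1140 and 1180 in WT Th1 cells. It rose in Tfh cells (0.66, adjusted p = 0.000751 by limma) and fell in Th1 cells (-0.34, adjusted p = 0.0345 by limma), and the effect in Tfh minus that in Th1 cells was 0.99 ± 0.13 (adjusted p = 0.00442 by limma). A second bright probe set of Btg2 gave 0.01 in Tfh and 0 in Th1 cells and passed in neither. In the fit over all probe sets with 1 symbol, the difference of the brighter one had an adjusted p of 0.0648.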

How the results depend on the processing

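Counts of the 38 genes called changed most with the arrays kept. The share of all genes called changed with them, as given above for several of these fits. It is not given for the highest counts in Th1 cells, on average and in WT mice. Nor is it given for the difference between genotype effects with 2 arrays left out. Counts without that share do not show whether the set differed from all genes. With 1 array left out, the set's median difference was 0.13 to 0.17 in Th1 cells (-0.01 to 0.01 over all genes). In Tfh cells it was 0.05 to 0.14 (0.02 to 0.06 over all genes). Leaving out 1 array at a time gave 1 to 11 in Tfh cells (4 with all arrays), 6 to 17 in Th1 cells (13), 9 to 21 on average over both (17), 0 to 2 for the difference between genotype effects (0), 0 to 12 for Tfh against Th1 in WT mice (8) and 0 to 3 in Rictor-null mice (3). With both WT Th1 replicate 1 and Rictor-null Tfh replicate 2 left out, 1 gene was called for the difference between genotype effects. Quantile normalization gave 1 in Tfh cells, where 6.6% of all genes rose and 3.85% fell. A filter at the 75th percentile, which kept 16 of the genes, gave 2 in Tfh cells (13.4% of all genes rose and 1.66% fell). It gave 6 in Th1 cells (9.45% and 3.48%) and 8 on average (15.6% and 3.27%). Between cell types it gave 3 in WT mice (2.45% of all genes higher and 13.9% lower) and 1 in Rictor-null mice (3.97% and 8.43%). No filter gave 1 in Rictor-null mice (1.69% and 3.31%). Fits of only the groups compared gave 2 in Tfh cells (7.43% of all genes rose and 1.02% fell). They gave 1 between cell types in Rictor-null mice (2.05% of all genes higher and 3.25% lower). Array weights gave 13 between cell types in WT (6.55% of all genes higher and 21.8% lower) and 1 in Rictor-null mice (2.1% and 3.78%). The second brightest probe set gave 4 in WT mice (2.95% and 9.2%). With that probe set Top2a was -0.01 in Tfh and Cenpa -0.19 in Th1 cells, so both changed sign. The cause was not tested beyond the smaller number of genes or arrays. With the replicate number as a block, 3 genes were called in Tfh cells (8.56% of all genes rose and 1.35% fell). In Th1 cells 12 were called (6.34% and 2.15%), and 5 between cell types in WT mice (1.9% higher and 7.04% lower). Deviations of same-numbered arrays correlated between -0.514 and 0.276 across the pairs of groups, which does not settle whether same-numbered arrays form pairs. The lowest, between Rictor-null Tfh and WT Th1 cells, means that WT Th1 replicate 1 and Rictor-null Tfh replicate 2 deviated in the same direction. Over all alternatives, 239 of 279 values of genes called in Th1 cells and 64 of 86 in Tfh cells kept their call and direction. These include the alternatives on the probe set, which used the same values for genes with no other probe set above the signal limit. With 2 arrays a group, small differences of dim genes cannot be resolved.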

Other observations

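Further brakes on division moved in 1 cell type. Rbl2, the p130 pocket protein of quiescent cells, had signals of 364 and 382 in Rictor-null Tfh against 443 and 425 in WT Tfh cells and fell (-0.20, adjusted p = 0.0401 by limma), and it was 0.06 in Th1 cells without passing. Foxo1, a transcription factor that holds T cells in quiescence and is restrained by AKT, had 617 and 584 in Rictor-null Th1 against 722 and 734 in WT Th1 cells and fell (-0.27, adjusted p = 0.0194 by limma). In Tfh cells Foxo1 was -0.19 without passing (adjusted p = 0.0717 by limma). A difference between the cell types did not pass for either gene, and dimmer probe sets of Rbl2 and Foxo1 above the signal limit did not pass.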
